A study of Mus musculus with 24 samples.

Results

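The glucocorticoid receptor gene, the mineralocorticoid receptor gene and 8 genes known to respond to corticosteroid were followed in mouse forebrain. The 10 genes, Nr3c1, Nr3c2, Sgk1, Fkbp5, Tsc22d3, Zbtb16, Cdkn1a, Pdk4, Errfi1 and Sult1a1, were chosen by name, with earlier results of these data known. They were among 18193 measured genes, and 24 of the 45101 probe sets carried 1 of these symbols and no other. Where a gene had several probe sets, its value is that of the brightest by mean signal over the 24 arrays, on the log2 scale throughout. All 10 were measured, and no filter on low values was applied.

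The samples were forebrains of TgCRND8 mice, which carry the transgene APPSwe/Ind, a human amyloid precursor protein gene with the Swedish and Indiana mutations, and of littermates without the transgene, here called controls. TgCRND8 and control mice were taken at 70, 80 and 150 days of age, with 4 mice and 4 arrays in each of the 6 groups. The promoter that drives the transgene is not named in the labels, and no hormone treatment is named for any group. The forebrain was taken whole, without the olfactory bulb, cerebellum and brainstem, so fewer cells of a type and less RNA per cell cannot be told apart.

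Corticosterone, the main glucocorticoid of mice, enters cells and binds the glucocorticoid receptor and, with higher affinity, the mineralocorticoid receptor. The bound receptor moves to the nucleus, binds short palindromic DNA elements and changes transcription of nearby genes. Corticosterone follows the time of day and rises with stress, and in brain several of the genes below respond within hours.

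Promoter windows are shown because their genes, Sgk1 and Fkbp5, gave the one pair that passed by Pearson r across mice, by the brightest probe sets. Sequences are from RefSeq on GRCm38.p6, 250 bases before to 50 bases after a transcript start, read along the gene's strand. Of 6 Sgk1 windows, 1 for each annotated start, the one printed was chosen because it holds the full palindrome, and Fkbp5 has 1 window. The Sgk1 window lies at chr10:21993640-21993939 on the plus strand and the Fkbp5 window at chr17:28486100-28486399 on the minus strand. Capitals mark the receptor half-site AGAACA or its reverse complement TGTTCT.
Sgk1: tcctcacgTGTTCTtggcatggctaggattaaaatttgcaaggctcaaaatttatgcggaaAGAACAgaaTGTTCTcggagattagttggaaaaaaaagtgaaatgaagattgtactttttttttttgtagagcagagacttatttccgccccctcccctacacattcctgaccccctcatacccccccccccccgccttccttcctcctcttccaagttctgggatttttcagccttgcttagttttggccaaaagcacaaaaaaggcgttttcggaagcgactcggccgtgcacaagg
Fkbp5: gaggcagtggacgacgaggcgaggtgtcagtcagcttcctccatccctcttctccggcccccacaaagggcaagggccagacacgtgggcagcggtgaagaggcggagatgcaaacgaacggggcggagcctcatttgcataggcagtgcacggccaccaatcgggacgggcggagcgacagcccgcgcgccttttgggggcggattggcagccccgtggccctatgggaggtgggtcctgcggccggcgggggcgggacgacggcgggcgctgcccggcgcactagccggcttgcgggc

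The printed Sgk1 window held 3 half-sites, and 2 of them, 3 bases apart, formed the full palindrome, which began at position -189 from the start. Of the other 5 Sgk1 windows, 3 held no half-site and 2 held 1 each. This palindrome was found in 3 of 32851 windows of the same length, or 0.00913%. The Fkbp5 window held no half-site. Windows were matched for 8 of the 10 genes, 17 windows in all, and 5 of these (29.4%) held a half-site on either strand, against 19% of all windows. This share counts each start of a gene separately. The 5 were the printed Sgk1 window, the 2 other Sgk1 windows with a half-site, and 1 window each of Sult1a1 and Tsc22d3. A match is a description of letters in a window and not of receptor binding.

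Array medians lay between 4.28 and 4.38, and the median correlation of arrays was 0.9957 within groups and 0.9954 between groups. TgCRND8 day 80 numbers 4 and 2 had the lowest median correlations with the other arrays, at 0.9926 and 0.9939. They also had the highest array medians, at 4.37 and 4.38. The mean of 7 measured forebrain markers was 7.25 to 7.41 in the 6 groups, against 3.43 to 3.62 for 7 cerebellum and hindbrain markers. The lowest forebrain marker mean was that of TgCRND8 day 80. There all 7 were lower than in control day 80 (median difference -0.125) and than in TgCRND8 day 70 (median difference -0.157), with 0 passing. The part of this shift in the TgCRND8 day 80 values was not tested. One array stood apart in the cerebellum and hindbrain list, control day 150 number 4. Its marker mean was 4.02, against 3.46 to 3.51 in the other 3 controls of that age. In it Pcp2, a Purkinje cell gene, read 6.27, and Gabra6, a granule cell gene of the cerebellum, read 4.58, while the other 3 read 3.91 to 4.17 and 2.76 to 3.12. Without this array the day 150 genotype difference of Tsc22d3 was -0.05 in place of -0.15, and those of the other 9 genes moved by at most 0.0675. Xist, the RNA of the inactive X chromosome, was low in 5 arrays, namely 2 of TgCRND8 day 80, 2 of control day 80 and 1 of control day 70. The part of this imbalance in the results was not tested beyond a fit with Xist as covariate.

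No difference between TgCRND8 and control forebrain passed the test for any of the 10 genes at any age. By limma with Benjamini-Hochberg adjustment over all genes, 0 of 10 had an adjusted p under 0.05 at day 70, day 80 or day 150, and 0 of 10 had an unadjusted p under 0.05. Over all genes the share with an adjusted p under 0.05 was 0% at day 70, 0% at day 80 and 0.121% at day 150. The share with an unadjusted p under 0.05 was 3.25% at day 70, 3.77% at day 80 and 4.38% at day 150. The ranges of TgCRND8 and control mice overlapped for all 10 genes at each age, while they did not overlap for 2.36%, 1.25% and 3% of all genes at days 70, 80 and 150. The median difference of the 10 genes was -0.00417 at day 70, 0.0105 at day 80 and 0.00838 at day 150, beside -0.00309, 0.00218 and 0.000435 over all genes. Averaged over the 3 ages, 0 of 10 passed and 0 of 10 had an unadjusted p under 0.05, beside 0.0385% and 3.16% of all genes. In that average Nr3c1, Nr3c2, Sgk1, Fkbp5 and Tsc22d3 differed by -0.04, -0.06, -0.13, 0.01 and -0.09. The other 5 differed by 0.09 (Zbtb16), 0.07 (Cdkn1a), 0.03 (Pdk4), -0.02 (Errfi1) and 0.04 (Sult1a1).

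**Figure D1:**
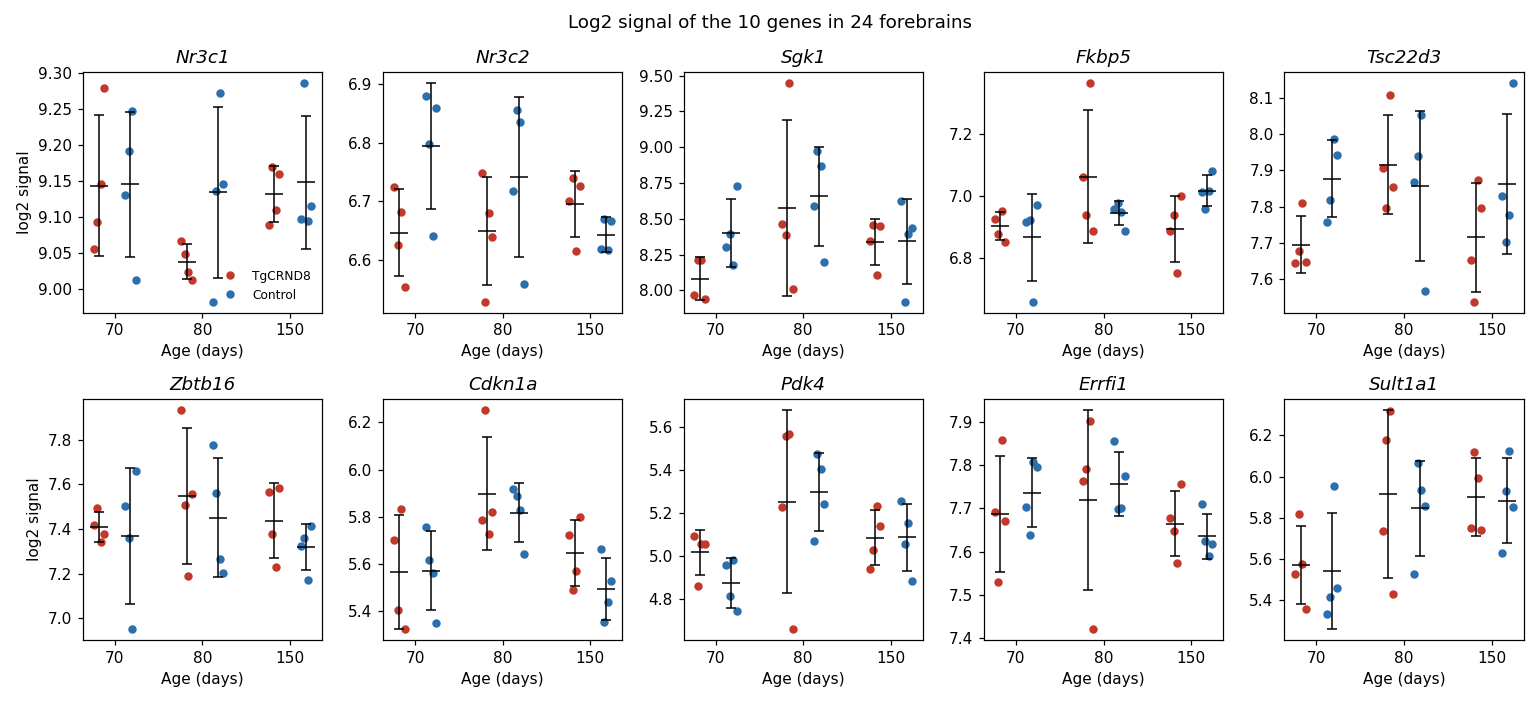
Log2 signal of each gene (vertical axis, scaled per gene) against age in days, with 1 point per mouse, TgCRND8 in red left of control in blue, and bars for the mean and SD of 4 mice. Sgk1 spread from 7.92 to 9.45, while Nr3c1 stayed between 8.98 and 9.29.

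Nr3c1, the glucocorticoid receptor gene, was by its brightest probe set among the least variable genes of the forebrain. In TgCRND8 mice it averaged 9.14, 9.04 and 9.13 at days 70, 80 and 150, and in controls 9.15, 9.13 and 9.15 (n = 4 each). Its range over 24 arrays was 0.303, and its within-group SD of 0.086 was at percentile 6.55 of all genes. At day 80 the 4 TgCRND8 arrays read 9.07, 9.05, 9.02 and 9.01, against 8.98, 9.14, 9.27 and 9.15 in control arrays. The TgCRND8 values lay inside the control range, and the difference was -0.10 (95% confidence interval -0.25 to 0.05, adjusted p = 1 by limma). The 5 dimmer Nr3c1 probe sets spread more, over 7.70 to 8.25, 6.06 to 6.82, 4.49 to 6.30, 3.56 to 4.15 and 2.88 to 3.58. After group means were removed, these 5 correlated with the brightest over the arrays at r between -0.152 and 0.542. So within groups the probe sets did not follow 1 pattern. The second of them, chosen here after its values were seen, differed by 0.26 between days 150 and 80 in TgCRND8 mice (adjusted p = 0.675 by limma over all probe sets).

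Nr3c2, the mineralocorticoid receptor gene, is strong in hippocampal neurons. At day 70 it read 6.72, 6.63, 6.68 and 6.55 in TgCRND8 arrays, against 6.88, 6.80, 6.64 and 6.86 in control arrays. The highest 3 arrays were controls, but the groups overlapped through 1 control, and the difference of -0.15 did not pass (standard error 0.074, adjusted p = 1 by limma). At day 80 the difference was -0.09 and at day 150 it was 0.05. Nr3c2 has 1 probe set on the array, so no other probe set bears on it.

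Sgk1, a kinase gene that answers to both receptors and acts on ion channels and neuronal excitability, varied most. Its within-group SD of 0.339 was at percentile 99.4 of all genes. At day 70 it read 7.96, 8.21, 8.21 and 7.94 in TgCRND8 arrays, against 8.30, 8.39, 8.18 and 8.73 in control arrays. All but 1 control lay above every TgCRND8 array, and the difference was -0.32 (95% confidence interval -0.75 to 0.11, adjusted p = 1 by limma). The highest control, number 4, was the day 70 array with low Xist, and without it the difference was -0.21. At day 80 the TgCRND8 arrays read 8.46, 8.39, 9.45 and 8.01, against 8.59, 8.97, 8.87 and 8.20 in controls. One TgCRND8 mouse, number 3, held the highest value of the study and was an array with low Xist, and the control values lay within the TgCRND8 range. The difference at day 80 was -0.08 with mouse 3 and -0.37 without it. At day 150 the means were 8.34 ± 0.16 in TgCRND8 and 8.34 ± 0.30 in control mice (SD, n = 4 each).

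Fkbp5 encodes a co-chaperone that lowers the affinity of the glucocorticoid receptor for hormone and is itself induced by the receptor. At day 80 it read 7.06, 6.94, 7.36 and 6.89 in TgCRND8 arrays, against 6.96, 6.98, 6.95 and 6.89 in control arrays. TgCRND8 mouse number 3 was again highest, and the genotype difference was 0.12 (95% confidence interval -0.06 to 0.30, adjusted p = 1 by limma). Without that mouse it was 0.0182. At day 150 the difference was -0.12, with means of 6.89 ± 0.11 in TgCRND8 and 7.02 ± 0.05 in control mice (SD, n = 4 each).

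Tsc22d3 encodes GILZ, a leucine zipper protein through which glucocorticoids dampen inflammatory signalling. At day 70 it read 7.64, 7.68, 7.81 and 7.65 in TgCRND8 arrays, against 7.76, 7.82, 7.99 and 7.94 in control arrays. Only 1 TgCRND8 array reached into the control range, and the difference of -0.18 did not pass (adjusted p = 1 by limma). The difference at day 80 was 0.06. At day 150 it read 7.65, 7.54, 7.87 and 7.80 in TgCRND8 arrays, against 7.83, 7.70, 7.78 and 8.14 in control arrays. The highest control, number 4, was the array with high hindbrain markers, and the difference was -0.15 with it and -0.05 without it. The part of those markers in the value was not tested.

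Zbtb16, a zinc finger transcription factor gene, averaged 7.41, 7.55 and 7.44 in TgCRND8 mice at days 70, 80 and 150, and 7.37, 7.45 and 7.32 in controls. Its 3 genotype differences, 0.04, 0.10 and 0.12, were each smaller than its within-group SD of 0.223. A second Zbtb16 probe set, also chosen after its values were seen, differed by 0.22 at day 80 (adjusted p = 1 by limma over all probe sets). Errfi1, whose product inhibits the epidermal growth factor receptor, had genotype differences of -0.05, -0.04 and 0.03 at the 3 ages. Sult1a1, a phenol sulfotransferase gene, had differences of 0.03, 0.07 and 0.02. Pdk4, which encodes a kinase that shuts pyruvate dehydrogenase, had 0.14, -0.04 and -0.00105. For Cdkn1a, the gene of the cell cycle inhibitor p21, the values were -0.01, 0.08 and 0.15. None of these 5 genes passed at any age.

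**Figure D2:**
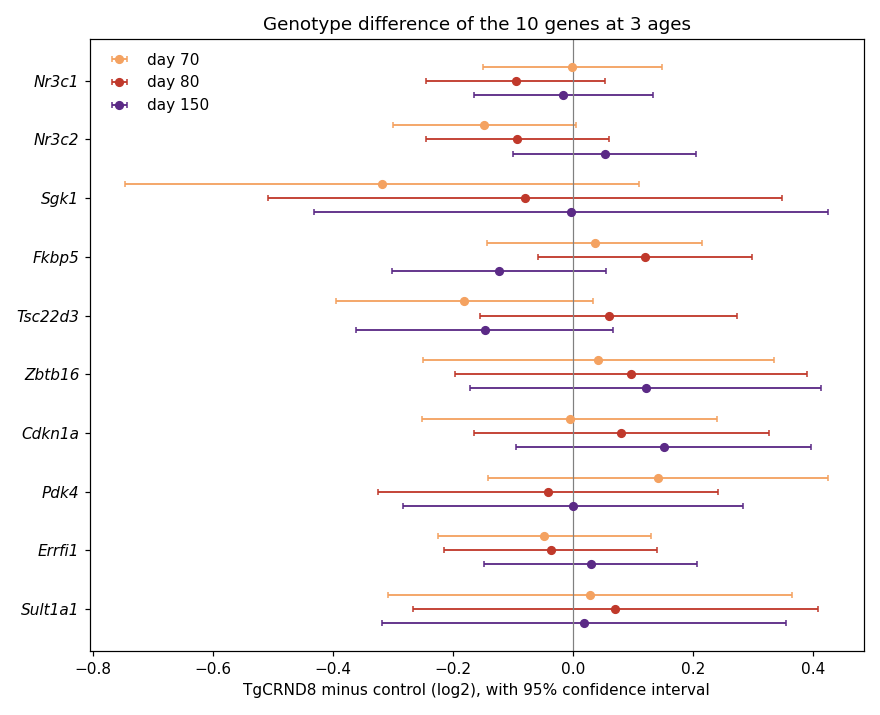
TgCRND8 minus control difference in log2 signal (horizontal axis) for each gene at days 70, 80 and 150, with 95% confidence intervals from limma (n = 4 mice per group). Every day 70, day 80 and day 150 interval includes 0, and the widest are those of Sgk1.

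No change of the genotype difference with age passed the test for any of the 10 genes. For day 80 against day 70, 0 of 10 passed by limma and 0 of 10 had an unadjusted p under 0.05, beside 0% and 2.64% of all genes. For day 150 against the mean of days 70 and 80, the counts were again 0 and 0 of 10, beside 0.011% and 5.75% of all genes. Tsc22d3 gave 0.24 for day 80 against day 70 (95% confidence interval -0.06 to 0.54), and Sgk1 also gave 0.24 (-0.37 to 0.84). Fkbp5 gave -0.20 for day 150 (-0.42 to 0.02). For day 80 the other 8 genes differed between -0.18 (Pdk4) and 0.09 (Cdkn1a), with Nr3c1 at -0.09, Nr3c2 at 0.06, Fkbp5 at 0.08, Zbtb16 at 0.05, Errfi1 at 0.01 and Sult1a1 at 0.04. For day 150 the other 9 lay between -0.09 (Tsc22d3) and 0.20 (Sgk1), with Nr3c1 at 0.03, Nr3c2 at 0.17, Zbtb16 at 0.05, Cdkn1a at 0.11, Pdk4 at -0.05, Errfi1 at 0.07 and Sult1a1 at -0.03.

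Age was then compared within each genotype. Day 80 enters both the day 80 against day 70 and the day 150 against day 80 comparison, so these share arrays. None of the 10 genes passed in any of the 6 age comparisons by limma, and single genes are given with unadjusted p-values as a description. In TgCRND8 mice at day 80 against day 70, 9 of 10 genes had a higher mean and the median difference was 0.191, beside 50.5% higher and a median of 0.00148 over all genes. Of the 10, 0 passed and 4 had an unadjusted p under 0.05, beside 0% and 5.72% of all genes, and 0 of 10 had groups that did not overlap, beside 2.04%. The count of 4 rested on single arrays. Without TgCRND8 day 70 number 4 it was 0, without day 70 number 1 or day 80 number 3 it was 1, and without day 80 number 4 it was 6. With Xist as covariate the count was 2, and 2 of the 4 day 80 arrays but 0 of the 4 day 70 arrays had low Xist. The direction was not particular to the 10 genes. In this comparison 9 of 10 neuronal activity genes had a higher mean (median 0.464), and 4 had an unadjusted p under 0.05 by limma. Of 28 other genes known to rise with corticosteroid, 22 were higher (median 0.133) and 6 had an unadjusted p under 0.05 by limma. Dusp1 is in both lists, and 0 genes passed in either.

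Sgk1 in TgCRND8 mice differed by 0.50 between day 80 and day 70 (unadjusted p = 0.0251, adjusted p = 0.86 by limma). Its day 80 arrays are led by mouse number 3, and 1 of the 4, at 8.01, lay inside the day 70 range. Without mouse 3 the difference was 0.20 (standard error 0.168), and with Xist as covariate it was 0.38 (standard error 0.225). Cdkn1a read 5.79, 6.25, 5.73 and 5.82 at day 80, against 5.70, 5.40, 5.83 and 5.32 at day 70, a difference of 0.33 (unadjusted p = 0.00988, adjusted p = 0.848 by limma). Mouse number 2 was the highest of the study for this gene, the groups overlapped, and without it the difference was 0.21. Tsc22d3, which encodes GILZ, differed by 0.22 (unadjusted p = 0.0428, adjusted p = 0.862 by limma). Sult1a1 read 5.73, 6.18, 6.32 and 5.43 at day 80, against 5.53, 5.82, 5.57 and 5.36 at day 70, a difference of 0.35 (unadjusted p = 0.0443, adjusted p = 0.862 by limma). For Sult1a1, 2 of the 4 day 80 arrays lay within the day 70 range, and without mouse 3 the difference was 0.21 (standard error 0.165). The other 6 genes did not reach an unadjusted p under 0.05: Nr3c1 at -0.11, Nr3c2 at 0.0026, Fkbp5 at 0.16, Zbtb16 at 0.14, Pdk4 at 0.24 and Errfi1 at 0.03.

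In control mice at day 80 against day 70, 0 of 10 passed and 2 had an unadjusted p under 0.05, beside 0% and 3.24% of all genes. Pdk4 read 5.07, 5.47, 5.40 and 5.24 at day 80, against 4.96, 4.82, 4.98 and 4.75 at day 70. These groups did not overlap, as for 1 of the 10 genes and 2.19% of all genes, and the difference was 0.42 (unadjusted p = 0.00523, adjusted p = 1 by limma). Cdkn1a differed by 0.25 (unadjusted p = 0.0487, adjusted p = 1 by limma). The other 8 were Nr3c1 at -0.01, Nr3c2 at -0.05, Sgk1 at 0.26, Fkbp5 at 0.08, Tsc22d3 at -0.02, Zbtb16 at 0.08, Errfi1 at 0.02 and Sult1a1 at 0.30. Whether the 2 genotypes differ in this age step is the change of the genotype difference given above, in which none of the 10 passed.

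**Figure D3:**
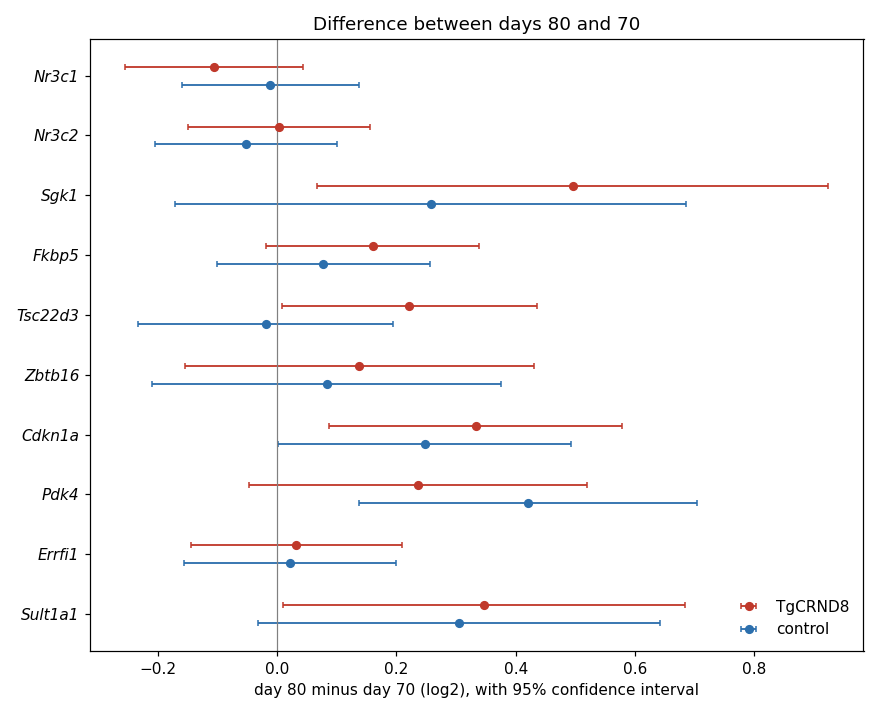
Day 80 minus day 70 difference in log2 signal (horizontal axis) for each gene in TgCRND8 (red) and control mice (blue), with 95% confidence intervals from limma (n = 4 mice per group). The intervals of the 2 genotypes overlap for every gene, and those of Cdkn1a lie above 0 in both.

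For day 150 against day 80 in TgCRND8 mice, 8 of 10 genes had a lower mean, 0 passed and 1 had an unadjusted p under 0.05, beside 0.022% and 6.76% of all genes. That gene was Cdkn1a, at -0.25 (unadjusted p = 0.0446, adjusted p = 0.72 by limma), and without TgCRND8 day 80 mouse 2 it was -0.13 (standard error 0.115). Nr3c1 was the 1 gene whose groups did not overlap, beside 2.59% of all genes, with 9.09, 9.17, 9.11 and 9.16 at day 150 against 9.07, 9.05, 9.02 and 9.01 at day 80. The difference was 0.09 (95% confidence interval -0.05 to 0.24, adjusted p = 0.842 by limma). The other 8 were Nr3c2 at 0.05, Sgk1 at -0.24, Fkbp5 at -0.17, Tsc22d3 at -0.20, Zbtb16 at -0.11, Pdk4 at -0.17, Errfi1 at -0.06 and Sult1a1 at -0.01. In controls the same comparison gave 0 of 10 passing and 1 with an unadjusted p under 0.05, beside 0% and 3.41% of all genes, again Cdkn1a at -0.32 (unadjusted p = 0.0118, adjusted p = 1 by limma). The other 9 in controls were Nr3c1 at 0.01, Nr3c2 at -0.10, Sgk1 at -0.31, Fkbp5 at 0.07, Tsc22d3 at 0.00525, Zbtb16 at -0.13, Pdk4 at -0.21, Errfi1 at -0.12 and Sult1a1 at 0.04.

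For day 150 against day 70 in TgCRND8 mice, 0 of 10 passed and 0 had an unadjusted p under 0.05, beside 0.0879% and 2.64% of all genes. Sult1a1 had the largest mean difference of the 10, at 0.33, and Sgk1 followed at 0.26. The other 8 were Nr3c1 at -0.01, Nr3c2 at 0.05, Fkbp5 at -0.00839, Tsc22d3 at 0.02, Zbtb16 at 0.03, Cdkn1a at 0.08, Pdk4 at 0.07 and Errfi1 at -0.02. In controls 0 passed and 1 had an unadjusted p under 0.05, beside 0.022% and 7.99% of all genes. Sult1a1 in controls read 5.63, 5.93, 6.12 and 5.85 at day 150, against 5.33, 5.41, 5.95 and 5.46 at day 70, a difference of 0.34 (unadjusted p = 0.0468, adjusted p = 0.622 by limma). The groups overlapped through control number 3 of day 70. The other 9 were Nr3c1 at 0.00299, Nr3c2 at -0.15, Sgk1 at -0.06, Fkbp5 at 0.15, Tsc22d3 at -0.01, Zbtb16 at -0.05, Cdkn1a at -0.08, Pdk4 at 0.21 and Errfi1 at -0.10.

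Sgk1 and Fkbp5 varied together between mice of the same genotype and age. After group means were removed, their Pearson r over 24 arrays was 0.816 and their Spearman rho 0.710 (permutation within groups, two-sided, p = 3e-05, adjusted p = 0.00135 over 45 pairs for r, and p = 0.00032, adjusted p = 0.0144 for rho). This was the 1 of 45 pairs that passed by Pearson, and 5 pairs had an unadjusted p under 0.05. TgCRND8 day 80 mouse 3 was highest in both genes and mouse 4 of that group was among the farthest below its group mean in both. Without the 2 arrays farthest in Sgk1, r was 0.609, and without TgCRND8 day 80 replicate 3 alone it was 0.641 (permutation adjusted p = 0.0184). Within TgCRND8 mice r was 0.933 (permutation p = 0.00238, adjusted p = 0.107) and within controls 0.595 (permutation p = 0.0235, adjusted p = 0.379), and the difference between genotypes was not tested. By age r was 0.669, 0.920 and 0.667 at days 70, 80 and 150, with 8 arrays each. TgCRND8 day 80, control day 80 and control day 70 held arrays of both low and high Xist, and TgCRND8 day 80 mouse 3 had low Xist. The deviations were not adjusted for Xist, and its part in this relation was not tested.

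The relation holds for 1 Fkbp5 probe set. The second, at a mean of 5.97, gave r = 0.23 with Sgk1 (permutation p = 0.171), and the third, near the lower end of the array at 2.42, gave r = 0.107 (permutation p = 0.681). The second probe set correlated with the first at r = 0.397 over the 24 arrays after group means were removed.

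**Figure D4:**
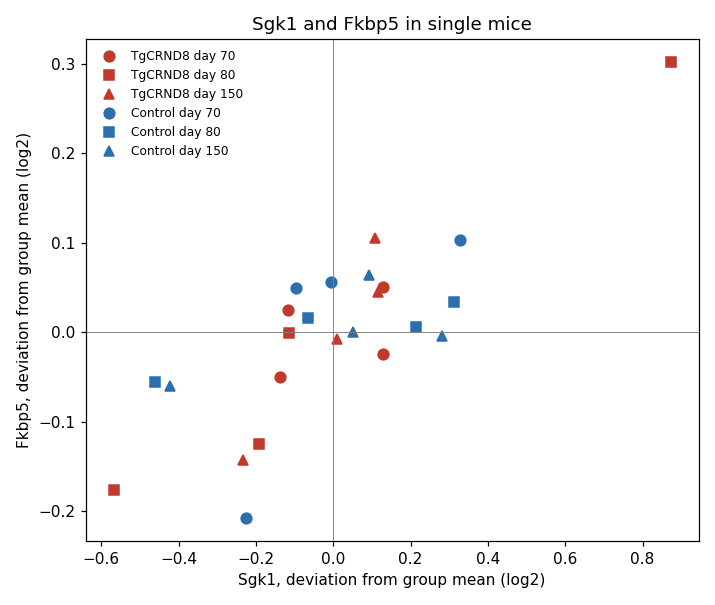
Deviation of Fkbp5 (vertical axis, log2) from its group mean against that of Sgk1 (horizontal axis, log2), 1 point per mouse, red for TgCRND8 and blue for control, with a shape for each age. The upper right point is TgCRND8 day 80 mouse 3, and r over the 24 mice is 0.816.

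The other pairs were weaker by the brightest probe sets. Of the 45 pairs 28 had a positive r, with a median of 0.155. Nr3c2 and Fkbp5 had r = 0.571 (permutation adjusted p = 0.139) and rho = 0.615 (permutation adjusted p = 0.047). Sgk1 and Tsc22d3 had r = 0.529 (permutation adjusted p = 0.259). Dimmer Tsc22d3 probe sets, at means of 7.54, 5.23 and 3.10, gave r = 0.516, 0.657 and -0.336 with Sgk1. Their permutation p-values, not adjusted, were 0.0743, 0.00134 and 0.0869. Zbtb16 and Sult1a1 ran opposite ways, at r = -0.606 (permutation adjusted p = 0.255). Nr3c1, the receptor gene itself, had r = -0.217 with Sgk1 and -0.25 with Fkbp5.

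**Figure D5:**
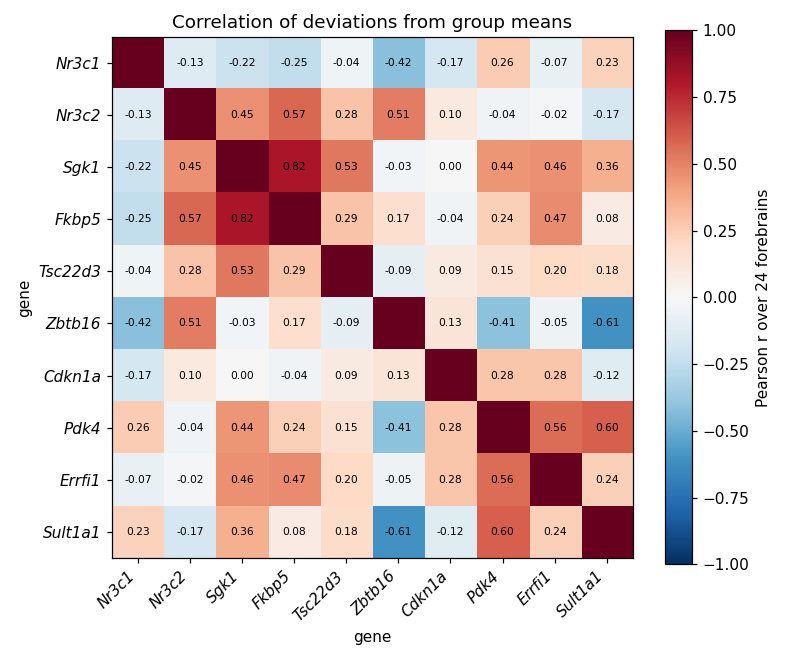
Pearson r over 24 forebrains of deviations from group means, for each pair of the 10 genes (both axes list the genes). Sgk1 with Fkbp5 is the strongest pair, and Zbtb16 is negative with Sult1a1.

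Part of the variation between mice was shared by many genes. The first principal component of 10916 brighter genes, after group means were removed, held 28.1% of their variance. Zbtb16 correlated with it at r = 0.844, Sult1a1 at -0.739 and Nr3c1 at -0.608, while Sgk1 was at -0.0742 and Fkbp5 at 0.186. With this component removed, Sgk1 and Fkbp5 had r = 0.847 (permutation adjusted p = 0.00045). The mean of 6 neuron markers followed Zbtb16 at r = 0.826, and that of 8 astrocyte markers followed Tsc22d3 at 0.589 and Sgk1 at 0.462. The mean of 7 forebrain markers followed Sgk1 at r = 0.453 and Fkbp5 at 0.505, and that of 7 pericyte markers ran opposite to Nr3c1 at -0.745. Zbtb16 also followed 15 clock genes at 0.822, the pericyte markers at 0.732 and 8 choroid plexus markers at 0.606. It ran opposite to 7 meninges markers at -0.661 and 5 microglia markers at -0.522. Nr3c1 was at -0.671 with the choroid plexus, -0.568 with the neuron and 0.427 with the microglia markers. So these values were not particular to 1 cell type. The part of cell makeup or dissection in these values was not tested.

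The genes most like each member were taken from 10915 others by Pearson r over the 24 arrays after group means were removed, as a description. For Sgk1 these were Canx (0.848), Gnai1 (0.837) and Ccdc181 (0.836), with Fkbp5 at rank 7. Sgk1 was second for Fkbp5, after Fam155a (0.829). Prickle1 led for Zbtb16 (0.948), Mrpl17 for Sult1a1 (0.904) and Prxl2a for Tsc22d3 (0.859).

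Other genes known to rise with corticosteroid were counted beside the 10. Of 30 listed, 28 were measured. At day 70, 21 of 28 had a lower mean in TgCRND8 mice and the median was -0.0658, beside -0.00309 over all genes. The share of all genes with a higher mean in TgCRND8 mice was 48.7% at day 70, 50.9% at day 80 and 50.1% at day 150. By limma 0 passed at day 70 and 5 had an unadjusted p under 0.05, beside 3.25% of all genes. At day 80, 17 of 28 had a lower mean (median -0.0206), and at day 150, 15 of 28 (median -0.0113), with 0 passing at either age. An unadjusted p under 0.05 was found for 4 of 28 at day 80 and 7 at day 150. The shares of all genes were 3.77% and 4.38% at these ages. At day 70 the means of 9 of 10 neuronal activity genes (median -0.377) and of 9 of 9 oligodendrocyte markers (median -0.168) were also lower in TgCRND8 mice, with 0 passing. Dusp1 is in both the neuronal activity list and the 28 genes, and was the lowest of each. The part of activity or cell makeup in the 28 genes was not tested. Per1, a clock gene, differed by -0.14 and Klf9, a transcription factor gene, by -0.02. Ddit4, an inhibitor of mTOR signalling, differed by -0.38 (adjusted p = 1 by limma) and Dusp1, a phosphatase of MAP kinases that neuronal activity also induces, by -0.64 (adjusted p = 1 by limma). Across mice Sgk1 and Errfi1 each had a positive r with 23 of these 28 genes (medians 0.26 and 0.188), and Tsc22d3 with 22 (median 0.27). The count was 20 for Fkbp5, 19 for Pdk4, 16 for Nr3c2 and 15 each for Cdkn1a and Sult1a1. It was 12 each for Nr3c1 and Zbtb16 (medians -0.0456 and -0.118). Over all genes, the share with a positive r was 47.1% for Sgk1 and 43.8% for Tsc22d3, and between 41.95% and 52.6% for the 10. The highest values for Sgk1 and Tsc22d3 were with Klf15 at 0.709 and with Fam107a at 0.725. The highest of all these pairs was Sult1a1 with Mt2, a metallothionein gene, at 0.851.

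Genes whose products hold or modify the receptor were counted in the same way. Of 10 receptor chaperone and co-chaperone genes 7 were measured, and 0 passed in the genotype comparison at any age. The heat shock protein genes Hsp90aa1 and Hspa8 differed by 0.03 and -0.06 at day 70. Of 12 genes of steroid handling and receptor coregulation 9 were measured and 0 passed. Hsd11b1, which regenerates active glucocorticoid inside cells, differed by -0.29 at day 150 (unadjusted p = 0.046, adjusted p = 0.999 by limma). It was the 1 of the 9 with an unadjusted p under 0.05 at that age, beside 4.38% of all genes. At days 70 and 80 the count was 0 of 9, beside 3.25% and 3.77% of all genes. Hsd11b1 averaged 7.80 in TgCRND8 and 7.82 in control mice at day 70, and 7.76 and 7.84 at day 80.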

How the data were processed

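Per the labels' protocols, forebrain RNA was isolated with TRIzol, cleaned on columns, labelled with biotin and hybridised to Affymetrix arrays, 1 array per mouse. The deposited values are log2 signals made by the authors. How they were normalized is not stated in the sources used here, and no further transformation was applied. All 24 sample columns were mapped from the labels and 0 were unused.

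Of 45101 probe sets 34945 carried 1 gene symbol, 932 several and 9160 none, and 64 were array controls. The brightest probe set per gene left 18193 genes. All arrays entered 1 limma fit with 6 group means and 12 contrasts (degrees of freedom 18 residual, 7.467 prior), with Benjamini-Hochberg adjustment over all genes and a threshold of 0.05. At a single age the typical (median) standard error between genotypes was 0.0977 log2, and 4 mice per group limit precision. Covariation used deviations from group means and 100000 permutations within groups. The pipeline was tested on simulated arrays for the day 150 genotype comparison over 18193 genes. There 79 of 100 genes shifted by 0.5 and 100 of 100 shifted by 1 were recovered, and 11 unshifted genes passed. The adjustment is less strict where many genes differ. In the measured data only 22 genes passed for genotype at day 150, and 0 at day 70 or day 80. The standard error of Sgk1 at a single age was 0.208, above the median. So these recovery rates do not give the chance of detecting such shifts in the genes followed here.

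The members and lists were chosen with earlier results of these data known. All 10 members are named in every comparison of genotype or age. Of the other lists, genes that passed are named, or up to 4 in list order where none did, and the 3 genes of highest r with a member; Hsd11b1 is named as the first of its list, and Klf15, Fam107a, Mt2 and the marker means were named after their values were seen. Replicate numbers are shared across groups in the labels, which name no shared litter or batch, and same-numbered arrays at an age correlated between -0.321 and 0.479 (positive in 10 of 12 pairs, over 0.1 in 9). Not every pair was over 0.1, so the number was not taken as a pairing, and the block was fitted as an alternative. Alternatives were other scalings, probe set rules, filters and covariates, and leaving out each array. The tools were limma 3.58.1 under R 4.3.3, and Python 3.11.15 with matplotlib 3.10.9 for figures.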

Additional observations from a re-analysis of the deposited data

Results flagged for a closer look

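Nr3c1 in control day 150 mouse 2 read 9.286, far above the nearest of the other 3 mice of its group at 9.115, a gap of 0.892 of the group's whole range. It was the 1 such value among 60 groups of 4 mice examined (10 genes in 6 groups), and chance gives about 1 in 20 groups.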

How the results depend on the processing

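No alternative brought any of the 10 genes past the threshold: the count was 0 in 408 of 408 recomputed counts over the 12 comparisons, and the lowest adjusted p of a gene was 0.246. With the replicate number as a block the count was also 0 in each comparison, and the lowest adjusted p was 0.374; 12 of 24 arrays correlated best with an array of their own number. The count of members at an unadjusted p under 0.05 for day 80 minus day 70 in TgCRND8 mice, reported as 4, ranged over 0 to 6 leaving out 1 array and 2 to 5 under other settings; for day 150 minus day 80 in TgCRND8 mice, reported as 1, it ranged over 0 to 4 leaving out 1 array and 0 to 3 under other settings. Of 4080 recomputed differences 176 had the opposite sign, in 60 of 120 results, none of which had passed. The cause was not tested. The largest reported difference among them was 0.239 in size. Over all genes, the count passing was 22 for genotype at day 150 (17 to 31 under other settings, 12 to 27 leaving out 1 array) and 7 over 3 ages (4 to 11). In TgCRND8 mice it was 16 for day 150 minus day 70 (8 to 21) and 4 for day 150 minus day 80 (1 to 9). In controls it was 4 for day 150 minus day 70 (0 to 7), and for the change of the genotype difference to day 150 it was 2 (1 to 4). Counts reported as 0 ranged up to 2. With Xist as covariate, for day 150 minus day 80 in TgCRND8 mice Errfi1 read 0.0233 and for day 80 minus day 70 in TgCRND8 mice Errfi1 read -0.045. For day 150 minus day 70 in controls Nr3c1 read -0.0218 and for day 150 minus day 80 in controls Nr3c1 read -0.0361. For day 80 minus day 70 in controls Nr3c1 read 0.0143 and Errfi1 -0.017 and for the change of the genotype difference to day 80 Errfi1 read -0.028. Without both day 80 arrays numbered 1, for day 150 minus day 80 in TgCRND8 mice Zbtb16 read 0.0193 and for day 80 minus day 70 in TgCRND8 mice Nr3c2 read -0.0307. For day 150 minus day 80 in controls Nr3c1 read -0.0364 and Sult1a1 -0.0682 and for day 80 minus day 70 in controls Nr3c1 read 0.0393 and Zbtb16 -0.0258 and Errfi1 -0.0109. For the change of the genotype difference to day 80 Sult1a1 read -0.00329. With the mean of all probe sets, for day 150 minus day 70 in TgCRND8 mice Tsc22d3 read -0.029 and for day 150 minus day 70 in controls Nr3c1 read -0.122 and Tsc22d3 0.0251 and Zbtb16 0.00252. For day 150 minus day 80 in controls Nr3c1 read -0.0884 and Tsc22d3 -0.0192 and Zbtb16 0.00805 and for day 80 minus day 70 in controls Tsc22d3 read 0.0443 and Zbtb16 -0.00553. For the change of the genotype difference to day 150 Zbtb16 read -0.0255 and Cdkn1a -0.0297 and for genotype at day 150 Nr3c1 read 0.0778 and Errfi1 -0.000449. After median centring, for day 150 minus day 80 in TgCRND8 mice Sult1a1 read 0.0131 and for day 80 minus day 70 in TgCRND8 mice Nr3c2 read -0.0233. For day 150 minus day 70 in controls Nr3c1 read -0.0343 and for day 150 minus day 80 in controls Nr3c1 read -0.00661 and Tsc22d3 -0.0155. For the change of the genotype difference to day 150 Sult1a1 read 0.0124 and for genotype at day 150 Nr3c1 read 0.00733 and Sgk1 0.0198 and Pdk4 0.0229. After quantile normalization, for day 150 minus day 70 in controls Tsc22d3 read 0.0433 and for day 80 minus day 70 in controls Nr3c1 read 0.00458 and Tsc22d3 0.0139. For the change of the genotype difference to day 150 Nr3c1 read -0.012 and Zbtb16 -0.00324 and for genotype at day 70 Nr3c1 read 0.00672. For genotype at day 150 Errfi1 read -0.00022. Leaving out each array in turn gave these lowest and highest values where a sign changed. Day 150 minus day 70 in TgCRND8 mice gave Nr3c1 -0.0411 to 0.0337, Fkbp5 -0.0436 to 0.0395, Tsc22d3 -0.0324 to 0.0796 and Zbtb16 -0.0198 to 0.0981. In the same comparison the ranges were Errfi1 -0.076 to 0.0334. Day 150 minus day 80 in TgCRND8 mice gave Sgk1 -0.428 to 0.0523, Zbtb16 -0.228 to 0.0193, Errfi1 -0.155 to 0.00568 and Sult1a1 -0.176 to 0.12. Day 80 minus day 70 in TgCRND8 mice gave Nr3c2 -0.0307 to 0.0429 and Errfi1 -0.0289 to 0.132. Day 150 minus day 70 in controls gave Nr3c1 -0.0429 to 0.0367, Sgk1 -0.151 to 0.0835, Tsc22d3 -0.107 to 0.0396 and Zbtb16 -0.189 to 0.0462. Day 150 minus day 80 in controls gave Nr3c1 -0.0364 to 0.0601, Tsc22d3 -0.0914 to 0.0706 and Sult1a1 -0.0682 to 0.123. Day 80 minus day 70 in controls gave Nr3c1 -0.0571 to 0.0393, Nr3c2 -0.104 to 0.00881, Tsc22d3 -0.0846 to 0.0774 and Zbtb16 -0.0554 to 0.18. In the same comparison the ranges were Errfi1 -0.0112 to 0.045. The change of the genotype difference to day 150 gave Tsc22d3 -0.14 to 0.00708, Zbtb16 -0.0077 to 0.121, Pdk4 -0.149 to 0.00539 and Sult1a1 -0.116 to 0.0495. The change of the genotype difference to day 80 gave Nr3c2 -0.00621 to 0.106, Sgk1 -0.0527 to 0.427, Fkbp5 -0.0171 to 0.153 and Zbtb16 -0.074 to 0.193. In the same comparison the ranges were Cdkn1a -0.033 to 0.175, Pdk4 -0.289 to 0.0123, Errfi1 -0.0504 to 0.11 and Sult1a1 -0.0958 to 0.204. Genotype at day 70 gave Nr3c1 -0.0473 to 0.0318, Fkbp5 -0.034 to 0.0696, Zbtb16 -0.0971 to 0.138 and Cdkn1a -0.0959 to 0.074. In the same comparison the ranges were Errfi1 -0.105 to 0.00423 and Sult1a1 -0.0547 to 0.166. Genotype at day 80 gave Sgk1 -0.371 to 0.109, Tsc22d3 -0.0377 to 0.124, Zbtb16 -0.0327 to 0.215 and Cdkn1a -0.0394 to 0.136. In the same comparison the ranges were Pdk4 -0.147 to 0.154, Errfi1 -0.099 to 0.0616 and Sult1a1 -0.0645 to 0.232. Genotype at day 150 gave Nr3c1 -0.0345 to 0.0293, Sgk1 -0.145 to 0.0893, Pdk4 -0.0685 to 0.0547 and Errfi1 -0.00216 to 0.0585. In the same comparison the ranges were Sult1a1 -0.0672 to 0.0984. Genotype over 3 ages gave Fkbp5 -0.0233 to 0.0299, Pdk4 -0.00223 to 0.0981, Errfi1 -0.0396 to 0.0139 and Sult1a1 -0.00631 to 0.0924.

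Of the 45 pairs, 1 passed in the reported setting, 2 by Spearman rho, 2 without both day 80 arrays numbered 1, 2 with the first principal component removed, 0 within TgCRND8 mice and 0 within controls, where 12 arrays remain. Leaving out each array in turn gave 1 to 3 pairs, with 3 without TgCRND8 day 80 replicate 3 (Sgk1 with Fkbp5, Nr3c2 with Fkbp5 and Fkbp5 with Zbtb16) and 2 without TgCRND8 day 80 replicate 1. With the replicate number as a block, 1 pair passed, Sgk1 with Fkbp5 at r = 0.855 (permutation adjusted p = 0.00045). For pairs, the block, removing the component and leaving out single arrays were chosen after the data were seen. Signals of the third Fkbp5 probe set, near the lower end of the array, limit what it can show.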
